A study of Homo sapiens with 6 samples.

Results

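The cytosolic and mitochondrial heat shock proteins were examined as 10 genes taken by symbol from the gene table of an RNA-seq experiment, namely HSPA1A, HSPA1B, HSPA8, HSPH1, DNAJB1, HSP90AA1, HSP90AB1, HSPB1, HSPD1 and HSPE1. All 10 were found among the 12180 genes listed, and 40 of the 33090 listed transcripts carried the same symbols. The experiment asked which transcripts change when FGL1, a secreted fibrinogen-like protein, is overexpressed in TE1 cells (written TE-1 in the labels), a cell line derived from a human esophageal squamous cell carcinoma (ESCC). It holds 3 control libraries (NC) and 3 libraries of cells with FGL1 overexpression (FGL1-OE). The genotype of the controls is WT in the labels, whereas the methods describe NC cells as carrying a random nonsense sequence and FGL1-OE cells as a stable line made with lentivirus and selected with puromycin, and no untransduced cells were analysed here. Expression was given as FPKM, the number of sequenced fragments scaled by transcript length and by the number of mapped fragments.

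Heat shock proteins are chaperones, proteins that hold or refold other proteins. In the cytosol, HSP70 proteins bind unfolded chains with the help of J-domain partners and of exchange factors that release the nucleotide, HSP90 proteins finish the folding of signalling proteins such as kinases and steroid receptors, and small heat shock proteins hold aggregating proteins in a refoldable state. In mitochondria, the chaperonin HSPD1 and its lid HSPE1 fold imported proteins in a closed chamber. Some of these genes are transcribed at all times, and others are switched on by the heat shock factor HSF1, which binds repeats of the letters GAA and TTC called heat shock elements.

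The heat shock elements of the 10 genes are shown first, because they are the regulatory sequence that most of these genes hold near a start. RefSeq windows of 300 bases, from 250 bases before to 50 bases after each transcription start on GRCh38.p14, were searched on both strands for 2 adjoining units (GAANNTTC or TTCNNGAA) and for 3 adjoining units (GAANNTTCNNGAA or TTCNNGAANNTTC), of which every match with 3 units also contains matches with 2 units. All 10 genes had a window, and some had several, which gave 16 windows. The 2-unit element was found in 8 of the 10 genes, in 9 of their 16 windows, against 13.5% of the 35116 windows of all genes. The 3-unit element was found in 4 of the 10 genes, in 4 of their 16 windows, against 0.490% of all windows. The windows of HSPH1 and HSPE1 held neither of these letter strings. In GENCODE the main HSPH1 transcript ENST00000380405 starts at chr13:31161927, outside the HSPH1 window (chr13:31162339-31162638). The bases just before that start were therefore not searched. The HSPE1 window begins at chr2:197500129, and the HSPD1 element at chr2:197500068-197500085 lies just outside it. The elements before a start, except a second 2-unit match in HSP90AA1, are given below as 30 bases on the strand of the gene, 5′ to 3′, with the matching letters in capitals and the annotation of GENCODE 29.
HSPA1A, chr6:31815426-31815455, plus strand, no annotated transcript over it: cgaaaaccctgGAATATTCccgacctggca
HSPA1B, chr6:31827622-31827651, plus strand, no annotated transcript over it: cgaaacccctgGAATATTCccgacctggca
HSPA8, chr11:123062345-123062374, minus strand, exon and intron of transcripts not listed here: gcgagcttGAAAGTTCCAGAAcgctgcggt
HSPA8, chr11:123062170-123062199, minus strand, exon and intron: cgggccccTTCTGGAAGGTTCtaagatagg
DNAJB1, chr19:14518456-14518485, minus strand, intron: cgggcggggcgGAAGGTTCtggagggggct
DNAJB1, chr19:14518426-14518455, minus strand, intron: ggcgggctctgGAAGCTTCcgccggacggg
HSP90AA1, chr14:102087111-102087140, minus strand, exon and intron: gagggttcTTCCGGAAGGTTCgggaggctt
HSP90AB1, chr6:44247770-44247799, plus strand, intron: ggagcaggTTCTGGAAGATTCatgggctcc
HSP90AB1, chr6:44247823-44247852, plus strand, intron: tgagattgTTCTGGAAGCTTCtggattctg
HSPB1, chr7:76302480-76302509, plus strand, no annotated transcript over it: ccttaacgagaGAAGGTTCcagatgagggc
HSPD1, chr2:197500061-197500090, minus strand, intron and exon: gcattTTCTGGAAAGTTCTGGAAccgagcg

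In HSPA1A and HSPA1B, neighbours with nearly the same coding sequence, the element began 106 and 105 bases before the RefSeq start, from which all these distances are counted, and it was of the 2-unit kind. In HSPA8 both elements had 3 units, and the second began 55 bases before the start, inside an exon of the listed transcript ENST00000453788 and an intron of ENST00000527387. The elements of DNAJB1 lay 77 and 47 bases before one of its starts and had 2 units each. In GENCODE they lie before the start of its main transcript ENST00000254322, at chr19:14518420, and in an intron of the listed ENST00000596075. The 3-unit element of HSP90AA1 began 88 bases before the start and overlaps the first exon of ENST00000216281, the transcript with the larger share of this gene in 5 of 6 libraries (all but NC 1), and lies in an intron of ENST00000334701. The HSP90AB1 elements lay within an intron of its 2 most abundant transcripts, before a start further inside the gene. The HSPD1 element lay in an intron of the main HSPD1 transcript ENST00000345042 and in an exon of the main HSPE1 transcript ENST00000233893. HSPD1 and HSPE1 are read in opposite directions, and the RefSeq start of HSPE1 lies 105 bases from one RefSeq start of HSPD1. The HSPD1 element was found before another, at chr2:197499840. In GENCODE the main HSPE1 transcript starts at chr2:197499994, inside the main HSPD1 transcript, which starts at chr2:197500274. A match of letters is a description of the sequence, and binding of HSF1 was not measured.

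The 6 libraries were checked before the heat shock genes were compared. FGL1 was at 0.0202 FPKM in NC 1, listed at 0 in NC 2 and at 0.106 FPKM in NC 3, against 33.5, 39.3 and 39.9 FPKM in the FGL1-OE libraries, and its log2 fold change of FPKM + 1 was 5.21 ± 0.15 (SE, limma, Benjamini-Hochberg adjusted p = 1.29e-05). With controls near 0 that value depends on the pseudocount and the table, being 8.12 with a pseudocount of 0.1 and 6.49 with sums of transcripts. Sequencing depth is unknown because the files give no read counts, and the listed FPKM summed to between 210904 and 226307 per library. Across genes, NC 1 and NC 2 correlated with r = 0.885, NC 2 and NC 3 with r = 0.950, and NC 1 and NC 3 with r = 0.964. Pairs of FGL1-OE libraries had r of at least 0.981. Of 10 squamous epithelial markers 9 were listed (all but KRT14), with a summed level of 983 to 1742 FPKM in NC and 1376 to 1601 FPKM in FGL1-OE. Of the markers of other cell types, 2 of 4 for fibroblasts (summed level 2.20 to 8.11 FPKM in NC and 3.21 to 5.94 FPKM in FGL1-OE), 1 of 4 for leukocytes (CD68, 2.25 to 5.73 FPKM in NC and 3.20 to 5.40 FPKM in FGL1-OE) and 0 of 2 for endothelium were listed. No source says that the 3 libraries of a group came from separate cultures, so p-values measure only the spread between these libraries. In limma the spread of each gene is also drawn toward that of the other genes tested. The SE of HSP90AB1 was 0.137 by limma and 0.0508 by an ordinary linear model, and that of HSPA1B was 0.255 and 0.301.

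The heat shock genes ranked between 21st and 2838th of the 12017 genes tested by mean level in TE1 cells, and none of the 10 passed the test between NC and FGL1-OE. In FGL1-OE compared with NC, 3 log2 fold changes were positive and 7 negative, between -0.08 in HSPD1 and 0.23 in HSPA8, with a median of -0.02 against 0.02 over all genes tested. The number with an adjusted p under 0.05 was 0 of 10 (limma, adjusted p = 1.00 for each, against 0.00832% of all genes, which is FGL1 alone). At an unadjusted p under 0.05 it was also 0 of 10 by limma and 0 of 10 by an ordinary linear model, where limma had 1.21% of all genes higher and 0.807% lower in FGL1-OE. The 2 groups did not overlap in 2 genes, HSPA8 and HSP90AB1, both higher in FGL1-OE, against 4.09% of all genes, and no member was lower without overlap, against 3.06%. Over the 10 genes the lowest bound of a 95% interval was 0.647-fold, in HSPA1B, and the highest was 1.49-fold, in HSPA8. These bounds were not set against those of all genes.

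**Figure D1:**
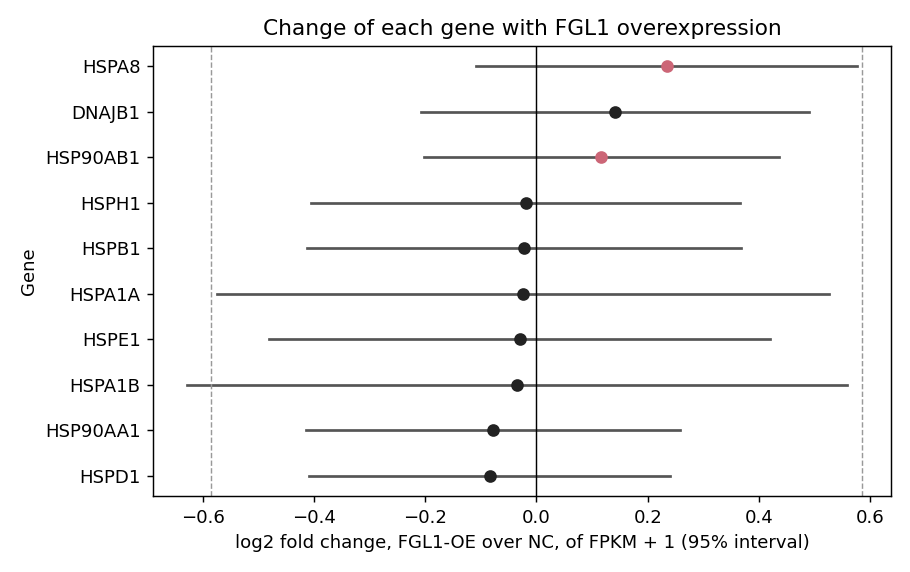
Log2 fold change of FPKM + 1 in FGL1-OE over NC for each of the 10 heat shock genes (points) with its 95% interval from limma (bars), ordered by size. Red points mark HSPA8 and HSP90AB1, whose groups did not overlap, the dashed lines mark a change of 1.5-fold, and every interval crosses 0.

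The mean level over the 6 libraries ranged 41.2-fold, from 604 FPKM for HSP90AB1 to 14.7 FPKM for HSPH1. By the gene values, HSP90AB1 stood above HSP90AA1 (265 FPKM) in 6 of 6 libraries. HSP90AA1 stood above HSPA8 (178 FPKM) and HSPA8 above HSPA1B (129 FPKM), also in 6 of 6 each. HSPA1B, HSPA1A (129 FPKM) and HSPD1 (126 FPKM) were not separated by these values. HSPA1B was above HSPA1A in 2 of 6 libraries and HSPA1A above HSPD1 in 4 of 6. HSPD1 was above HSPB1 (74.1 FPKM) and HSPB1 above HSPE1 (34.7 FPKM) in 6 of 6 libraries, HSPE1 was above DNAJB1 (30.2 FPKM) in 5 of 6, and DNAJB1 was above HSPH1 in 6 of 6. By transcript values part of this order differed. The 2 most abundant HSPA8 transcripts summed to 493, 379 and 454 FPKM in NC and to 513, 548 and 497 FPKM in FGL1-OE. Those of HSP90AA1 summed to 413, 401 and 425 FPKM in NC and to 355, 424 and 401 FPKM in FGL1-OE. The HSP90AA1 sum was thus the lower one in all libraries but NC 2. The main HSPD1 transcript was at 202 to 234 FPKM, against 85.2 to 160 FPKM for that of HSPA1B. Together the 10 genes made up 0.723% ± 0.0628 of the listed FPKM in NC and 0.739% ± 0.0300 in FGL1-OE (SD, n = 3 each). Their summed level was 1575, 1476 and 1638 FPKM in NC 1 to NC 3 and 1576, 1607 and 1635 FPKM in FGL1-OE 1 to FGL1-OE 3, a log2 ratio of group means of 0.04 (p = 0.6 by an exact permutation test, two-sided, which cannot go below 0.1 here). In bulk RNA, fewer cells of a kind and less RNA per cell cannot be told apart.

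**Figure D2:**
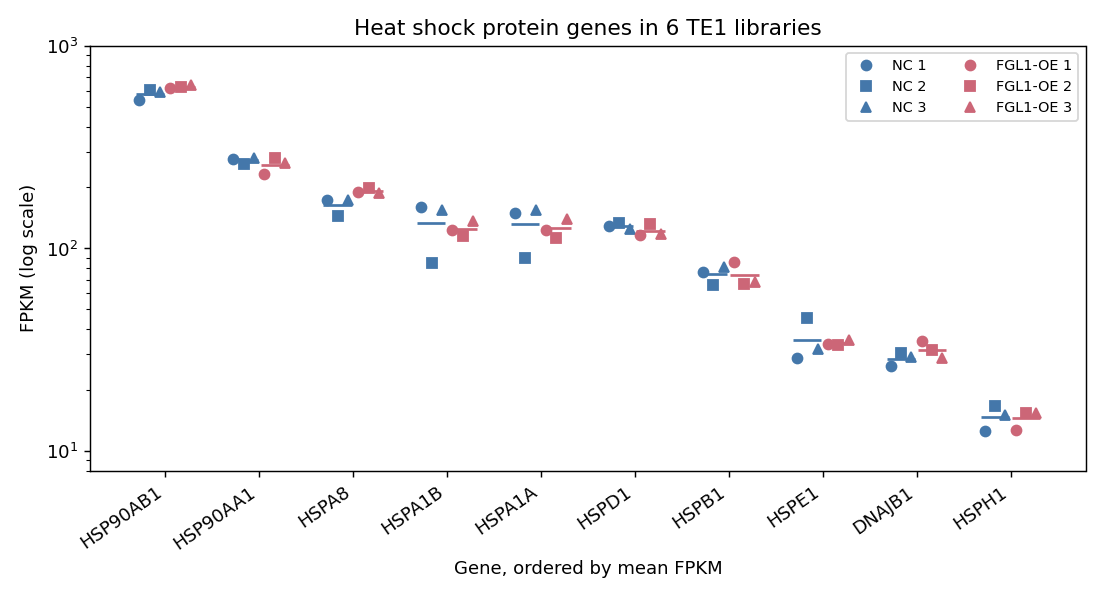
FPKM on a log scale for the 10 heat shock genes in the 3 NC libraries (blue) and the 3 FGL1-OE libraries (red), with each library as a symbol and the group mean as a line. HSP90AB1 is highest at a mean of 604 FPKM and HSPH1 lowest at 14.7 FPKM, and the NC 2 square lies apart for HSPA1A, HSPA1B, HSPA8 and HSPE1.

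HSPA1A and HSPA1B encode the stress-inducible cytosolic HSP70, and they lie side by side on chromosome 6. HSPA1A (ENSG00000204389, chr6:31783241-31785723 on GRCh37) was at 150, 89.3 and 154 FPKM in NC 1 to NC 3 and at 124, 113 and 140 FPKM in FGL1-OE 1 to FGL1-OE 3. HSPA1B (ENSG00000204388, chr6:31795512-31798032 on GRCh37) was at 160, 85.2 and 154 FPKM in NC and at 124, 115 and 137 FPKM in FGL1-OE. In both genes NC 1 and NC 3 were the highest libraries and NC 2 the lowest, so the FGL1-OE libraries lay between the controls. The log2 fold change was -0.02 ± 0.24 for HSPA1A and -0.04 ± 0.26 for HSPA1B (SE, limma, adjusted p = 1.00 for both). With NC 2 left out, all FGL1-OE libraries were below both remaining controls. The log2 fold changes were then -0.28 for HSPA1A (limma, adjusted p = 0.272) and -0.33 for HSPA1B (limma, unadjusted p = 0.0456, adjusted p = 0.223), where an exact permutation test cannot go below 0.2. HSPA1B was thereby the 1 member of 10 with an unadjusted p under 0.05, against 10.6% of all genes that were lower and 11.2% that were higher in FGL1-OE at that threshold without NC 2. With NC 1 left out instead, the sign turned, with log2 fold changes of 0.09 for HSPA1A and 0.12 for HSPA1B. The reads of the 2 genes are hard to assign, as 74.3% of the 31-base words of the HSPA1A transcript ENST00000375651 occur in HSPA1B and 73.1% of those of the HSPA1B transcript occur in HSPA1A. The ratio of HSPA1A to HSPA1B was 0.942 to 1.05 in all 6 libraries.

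HSPA8, the constitutive HSP70 of the cytosol, had the largest log2 fold change of the 10 genes. HSPA8 (ENSG00000109971, chr11:122928197-122933938 on GRCh37) was at 174, 145 and 174 FPKM in NC 1 to NC 3 and at 191, 198 and 189 FPKM in FGL1-OE 1 to FGL1-OE 3. Every FGL1-OE library was above every control, and NC 2 was again the lowest. The mean was 164 ± 16.8 FPKM in NC and 193 ± 5.08 FPKM in FGL1-OE (SD, n = 3 each), 1.18-fold on the FPKM + 1 scale with an interval of 0.928 to 1.49 (limma, adjusted p = 1.00). Without NC 2 the log2 fold change was 0.15 in place of 0.23. The stress-inducible and the constitutive HSP70 were also compared within each library, where the scaling of the library drops out. The ratio of HSPA1A plus HSPA1B to HSPA8 was 1.78, 1.21 and 1.78 in NC 1 to NC 3 and 1.30, 1.15 and 1.47 in FGL1-OE 1 to FGL1-OE 3, so the groups overlapped through NC 2 (log2 difference -0.27, exact two-sided permutation test, p = 0.3, adjusted p = 0.8 over 6 ratios). Without NC 2 the groups did not overlap and the log2 difference was -0.45 (exact permutation p = 0.2, the smallest possible with 2 controls). These ratios rest on the gene values. Among the transcript values of NC 1, the 2 of HSPA1A summed to 161 FPKM and that of HSPA1B was at 160 FPKM. The 2 most abundant HSPA8 transcripts summed to 493 FPKM there, so which form was higher depends on the values used.

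HSPH1 and DNAJB1 are partners of HSP70. HSPH1, an HSP110 protein that exchanges the nucleotide bound to HSP70, was at 12.6, 16.7 and 15.0 FPKM in NC 1 to NC 3 and at 12.8, 15.3 and 15.5 FPKM in FGL1-OE 1 to FGL1-OE 3 (ENSG00000120694, chr13:31709111-31736525 on GRCh37). DNAJB1, a J-domain protein that stimulates the HSP70 ATPase, was at 26.4, 30.4 and 29.0 FPKM in NC and at 34.9, 31.5 and 28.7 FPKM in FGL1-OE (ENSG00000132002, chr19:14625582-14640582 on GRCh37). The groups overlapped in both genes, and in DNAJB1 FGL1-OE 1 was the highest library and FGL1-OE 3 lay among the controls. The log2 fold change was -0.02 ± 0.17 for HSPH1 and 0.14 ± 0.15 for DNAJB1 (SE, limma, adjusted p = 1.00 for both). Relative to HSPA8, the log2 difference between FGL1-OE and NC was -0.26 for HSPH1 (exact two-sided permutation test, p = 0.4, adjusted p = 0.8, and -0.41 without NC 1 or -0.08 without NC 2) and -0.09 for DNAJB1 (exact permutation p = 0.6, adjusted p = 0.9).

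Of the 2 cytosolic HSP90 genes, HSP90AB1 is regarded as the constitutive form and HSP90AA1 as the inducible one. HSP90AB1 (ENSG00000096384, chr6:44213903-44221625 on GRCh37) was at 541, 604 and 594 FPKM in NC 1 to NC 3 and at 621, 623 and 640 FPKM in FGL1-OE 1 to FGL1-OE 3. HSP90AA1 (ENSG00000080824, chr14:102547075-102606036 on GRCh37) was at 276, 260 and 280 FPKM in NC and at 233, 278 and 263 FPKM in FGL1-OE. All FGL1-OE libraries were above all controls for HSP90AB1, whereas for HSP90AA1 the groups overlapped and FGL1-OE 1 was the lowest library. HSP90AB1 had a mean of 580 ± 33.6 FPKM in NC and 628 ± 10.1 FPKM in FGL1-OE (SD, n = 3 each, log2 fold change 0.12 ± 0.14, limma, adjusted p = 1.00), and HSP90AA1 had a log2 fold change of -0.08 ± 0.14. Without NC 1 the log2 fold change of HSP90AB1 was 0.07. The ratio of HSP90AA1 to HSP90AB1 was 0.510, 0.431 and 0.471 in NC 1 to NC 3 and 0.375, 0.447 and 0.412 in FGL1-OE 1 to FGL1-OE 3, with overlap between the groups (log2 difference -0.20, exact two-sided permutation test, p = 0.2, adjusted p = 0.8).

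HSPB1 is a small heat shock protein found at a high level in squamous epithelium. HSPB1 (ENSG00000106211, chr7:75931861-75933612 on GRCh37) was at 76.3, 66.3 and 81.3 FPKM in NC 1 to NC 3 and at 85.8, 67.0 and 68.2 FPKM in FGL1-OE 1 to FGL1-OE 3. FGL1-OE 1 was the highest library and NC 2 the lowest, so the groups overlapped, while NC 1 and NC 3 lay above FGL1-OE 2 and FGL1-OE 3. The log2 fold change was -0.02 ± 0.17 (SE, limma, adjusted p = 1.00).

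The mitochondrial chaperonin HSPD1 and its lid HSPE1 are neighbours on chromosome 2. HSPD1 (ENSG00000144381, chr2:198351305-198381461 on GRCh37) was at 129, 134 and 125 FPKM in NC 1 to NC 3 and at 116, 132 and 119 FPKM in FGL1-OE 1 to FGL1-OE 3. HSPE1 (ENSG00000115541, chr2:198364718-198368181 on GRCh37) was at 28.9, 45.6 and 31.8 FPKM in NC and at 33.7, 33.3 and 35.1 FPKM in FGL1-OE. HSPD1 varied only 1.15-fold over the 6 libraries, the narrowest range of the 10 genes, while HSPE1 was highest in NC 2 and close to equal in the FGL1-OE libraries. The log2 fold change was -0.08 ± 0.14 for HSPD1 and -0.03 ± 0.19 for HSPE1 (SE, limma, adjusted p = 1.00 for both), and without NC 2 that of HSPE1 was 0.16. The ratio of HSPD1 to HSPE1 was 4.47, 2.94 and 3.93 in NC 1 to NC 3 and 3.45, 3.95 and 3.37 in FGL1-OE 1 to FGL1-OE 3, and it was lowest in NC 2 (log2 difference between groups -0.05, exact two-sided permutation test, p = 1). Reads of HSPE1 can also be hard to assign, since 31.5% of the 31-base words of its main transcript occur in 18 other genes, most of them in the read-through gene HSPE1-MOB4.

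The spread of the members differed by gene rather than by group alone. The SD of log2(FPKM + 1) among the controls ran from 0.05 in HSPD1 to 0.50 in HSPA1B with a median of 0.15, against a median of 0.31 over all genes tested. Among the FGL1-OE libraries it ran from 0.02 in HSP90AB1 to 0.20 in HSPB1 with a median of 0.13, against 0.12 over all genes tested. Of the 10 genes, 6 had the larger SD in NC. The library farthest from the mean of the gene was NC 2 in 4 genes, FGL1-OE 1 in 4 and NC 1 in 2. These counts were not set against all genes and describe the 10 genes only. NC 2 was low for HSPA1A, HSPA1B and HSPA8 and high for HSPE1 and HSPH1, so it did not deviate in 1 direction over the heat shock genes.

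**Figure D3:**
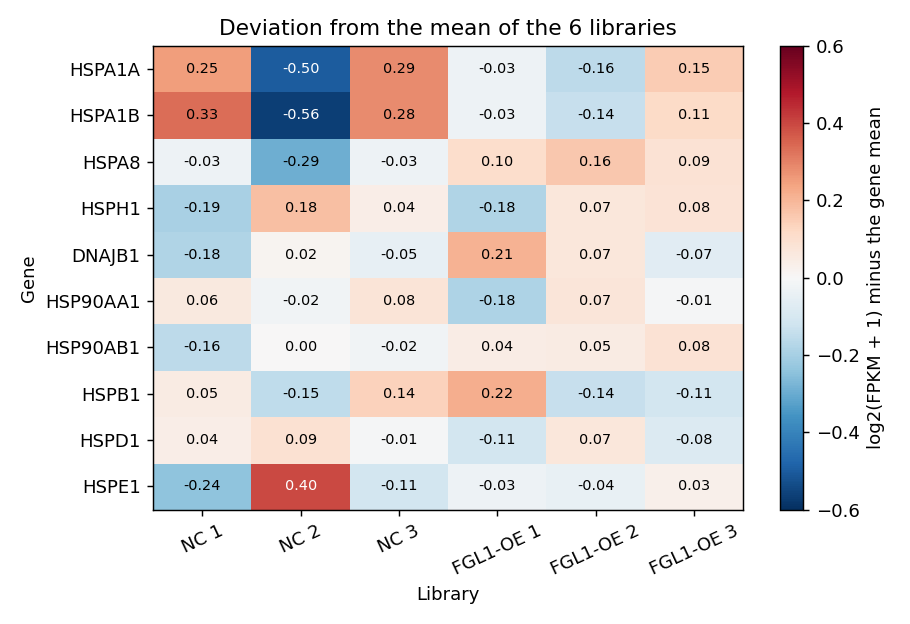
Deviation of log2(FPKM + 1) from the gene's mean over the 6 libraries, with genes in rows and libraries in columns (red above, blue below the mean). The 3 largest deviations are those of NC 2 (-0.56 in HSPA1B, -0.50 in HSPA1A and 0.40 in HSPE1), and HSPD1 stays between -0.11 and 0.09.

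At the level of transcripts the tables list from 1 (HSPA1B) to 12 (HSPA8) transcripts per heat shock gene, and 38 of the 40 were tested. No transcript passed the adjusted test (0 of 38, against 0.0165% of all 30330 transcripts tested). At an unadjusted p under 0.05, 2 of 38 were higher in FGL1-OE, against 2.05%, and 0 were lower, against 1.48%. The groups did not overlap in 5 transcripts, all higher in FGL1-OE, against 4.65%, and 0 were lower without overlap, against 3.57%. The median log2 fold change was 0.03, and 15 transcripts made up at least 10% of their gene on average.

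Both transcripts with an unadjusted p under 0.05 were minor ones of HSPH1, and they are named here because of these values. ENST00000630972 was at 2.44, 0.748 and 1.70 FPKM in NC 1 to NC 3 and at 2.59, 5.04 and 4.05 FPKM in FGL1-OE 1 to FGL1-OE 3 (log2 fold change 0.92 ± 0.35, limma, unadjusted p = 0.0394, adjusted p = 1.00, exact permutation p = 0.1). ENST00000435381 was at 0.447 and 0.913 FPKM in NC 1 and NC 3, listed at 0 in NC 2, and at 1.18, 1.81 and 1.47 FPKM in FGL1-OE (log2 fold change 0.82 ± 0.31, limma, unadjusted p = 0.0377, adjusted p = 1.00, exact permutation p = 0.1). Both were higher in every FGL1-OE library than in any control, with NC 2 the lowest. The main HSPH1 transcript, ENST00000380405, was at 18.3, 24.4 and 25.7 FPKM in NC and at 14.6, 18.7 and 19.2 FPKM in FGL1-OE, where the groups overlapped (log2 fold change -0.36 ± 0.26). All 31-base words of ENST00000630972 and 99.1% of those of ENST00000380405 occur in other transcripts of HSPH1, so the values of these transcripts depend on how shared reads were split.

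The other 3 transcripts without overlap belong to HSPA8. Its most abundant transcript, ENST00000534319, was at 288, 279 and 341 FPKM in NC 1 to NC 3 and at 357, 343 and 357 FPKM in FGL1-OE 1 to FGL1-OE 3 (log2 fold change 0.22 ± 0.22, limma, adjusted p = 1.00). ENST00000453788 was at 12.2, 18.7 and 18.5 FPKM in NC and at 23.4, 22.7 and 22.1 FPKM in FGL1-OE (log2 fold change 0.46 ± 0.26), and ENST00000526110 was between 0.857 and 1.72 FPKM. The second most abundant, ENST00000528292, had overlapping groups, with 204 FPKM in NC 1 and 205 FPKM in FGL1-OE 2. The gene value of HSPA8 is not the sum of its transcript values, which is larger in each library. The same holds for the other members except HSPA1B, which has 1 listed transcript. In NC 1, for example, the main HSPD1 transcript alone was at 230 FPKM, against a gene value of 129 FPKM.

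In the HSP90 genes the split between transcripts changed from library to library while their sum changed little. The HSP90AB1 transcript ENST00000371646 was at 602, 478 and 666 FPKM in NC 1 to NC 3 and at 288, 711 and 731 FPKM in FGL1-OE 1 to FGL1-OE 3. Its near twin ENST00000353801 was at 0.0727, 203 and 8.43 FPKM in NC and at 360, 2.22 and 6.20 FPKM in FGL1-OE. The twin was thus high in NC 2 and FGL1-OE 1 alone, and there the first transcript was low. The 2 transcripts summed to between 603 and 737 FPKM in the 6 libraries, a 1.22-fold range, and 98.9% of the 31-base words of the first occur in the second. In HSP90AA1, ENST00000216281 was at 186, 365 and 316 FPKM in NC and at 279, 311 and 284 FPKM in FGL1-OE. The second transcript, ENST00000334701, was at 228, 35.5 and 109 FPKM in NC and at 75.9, 113 and 117 FPKM in FGL1-OE. NC 1 and NC 2 stood at opposite ends of this split. Their sum ranged 1.20-fold, and 84.6% of the words of the first occur in the second.

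**Figure D4:**
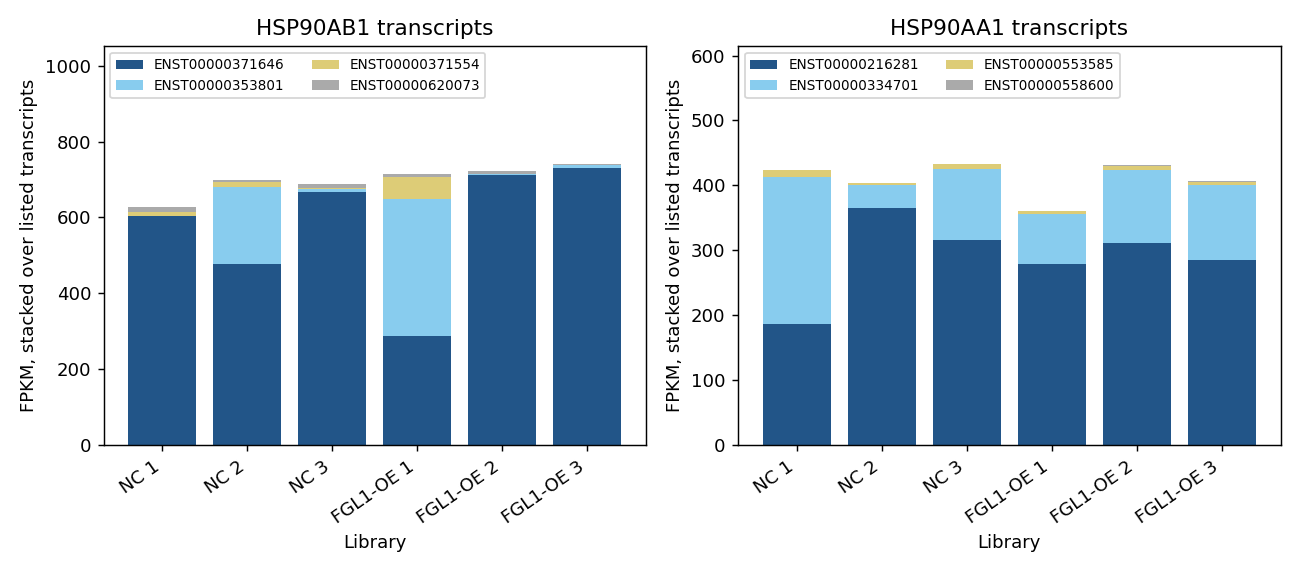
Stacked FPKM of the listed transcripts of HSP90AB1 (left) and HSP90AA1 (right) in the 3 NC and 3 FGL1-OE libraries, with bars starting at 0. The sum of the leading 2 transcripts stays within 603 to 737 FPKM for HSP90AB1, while ENST00000353801 ranges from 0.0727 to 360 FPKM.

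A single transcript carried most of the level of the remaining genes. DNAJB1 was 95.6% ENST00000254322, HSPB1 97.2% ENST00000248553, HSPD1 91.4% ENST00000345042 and HSPE1 91.1% ENST00000233893 (mean share over the 6 libraries). HSPA1A was 89.2% ENST00000375651, and its second transcript ENST00000608703 was at 46.2 FPKM in NC 1 and between 4.42 and 12.4 FPKM in the other libraries. The second HSPE1 transcript, ENST00000409729, was likewise highest in NC 1, at 24.5 FPKM, and listed at 0 in 3 libraries. The share of 31-base words found in other genes was 41.7% for the main HSP90AB1 transcript, 37.5% for HSP90AA1, 40.7% for HSPA8 and 49.7% for HSPD1, against 19.1% for HSPB1, 7.79% for DNAJB1 and 0% for HSPH1.

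The wider chaperone network was read from 9 lists with 91 genes, of which 83 were tested. Over all lists 0 genes passed the adjusted test, 1 gene was higher at an unadjusted p under 0.05 (limma, against 1.21% of all genes) and 0 were lower, and the median log2 fold change was 0.07 against 0.02 over all genes. The groups did not overlap in 6 genes that were higher, against 4.09% of all genes, and in 1 that was lower in FGL1-OE, against 3.06%. Without NC 2, 13 of the 83 genes were higher and 10 lower at an unadjusted p under 0.05, against the 11.2% and 10.6% of all genes given above.

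Neither the 4 genes of heat shock factors and their binding protein nor the lists of HSP70 relatives and of HSP70 and HSP90 partners held a gene with an unadjusted p under 0.05. HSF1 (named because it binds the elements shown above) was at 5.84, 6.31 and 8.07 FPKM in NC 1 to NC 3 and at 6.77, 7.37 and 6.15 FPKM in FGL1-OE 1 to FGL1-OE 3, with overlap. The most abundant gene of that list, the HSF1-binding HSBP1, had a log2 fold change of 0.19 ± 0.26. Of the other HSP70 and HSP110 genes 6 of 8 were tested, with a median of 0.15, and HSPA4, an HSP110 protein, was at 44.1 ± 12.3 FPKM in NC and 50.9 ± 4.75 FPKM in FGL1-OE (SD, n = 3 each). The 15 J-domain proteins had a median of -0.07, with DNAJA1, a cytosolic partner of HSPA8, at 97.8 ± 11.8 FPKM in NC and 86.6 ± 7.47 FPKM in FGL1-OE, and only DNAJB5, named for this, was lower without overlap of the groups. The 9 HSP70 cochaperones had a median of 0.02, with ST13, which joins HSP70 to HSP90, at 0.03 ± 0.18. The 15 HSP90 cochaperones had a median of 0.08, with PTGES3, which stabilises the closed HSP90 dimer, at -0.01 ± 0.21 (log2 fold change and SE).

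Only 3 of the 9 other genes of the small heat shock protein list were tested, with a median of -0.13. The most abundant, HSPB11, is known as a part of intraflagellar transport rather than as a chaperone, and was at 14.3 ± 4.06 FPKM in NC and 15.8 ± 0.244 FPKM in FGL1-OE. The 17 other mitochondrial chaperones and proteases ranged from -0.35 to 0.40 in log2 fold change, with a median of 0.04. HSPA9, the mitochondrial HSP70 that pulls proteins into the matrix, was at 61.4, 113 and 83.8 FPKM in NC 1 to NC 3 and at 83.9, 98.9 and 99.4 FPKM in FGL1-OE 1 to FGL1-OE 3, with the controls on both sides of FGL1-OE.

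The cytosolic chaperonin TRiC, a ring that folds actin and tubulin, and prefoldin, which hands it these chains, had the highest medians of the lists, at 0.23 over 8 genes and 0.17 over 6 genes. The log2 fold changes of the 8 TRiC subunits ran from 0.05 to 0.31, and 0 had an unadjusted p under 0.05. The groups did not overlap in CCT2, CCT3, CCT4 and CCT5 (of these all but CCT5 are named for this), where FGL1-OE was higher, against 4.09% of all genes. CCT5, the most abundant subunit, was at 140, 165 and 156 FPKM in NC 1 to NC 3 and at 177, 185 and 187 FPKM in FGL1-OE 1 to FGL1-OE 3 (log2 fold change 0.25 ± 0.14, limma, adjusted p = 1.00). NC 1 was the lowest library for each of these 4 subunits. In prefoldin, PFDN1 was at 11.5, 18.0 and 13.4 FPKM in NC and at 23.7, 19.1 and 27.3 FPKM in FGL1-OE, all above the controls (log2 fold change 0.68 ± 0.21, limma, unadjusted p = 0.0131, adjusted p = 1.00, exact permutation p = 0.1). PFDN4, also without overlap, had 0.31 ± 0.18, and PFDN2, the most abundant prefoldin subunit, had 0.00 ± 0.17.

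**Figure D5:**
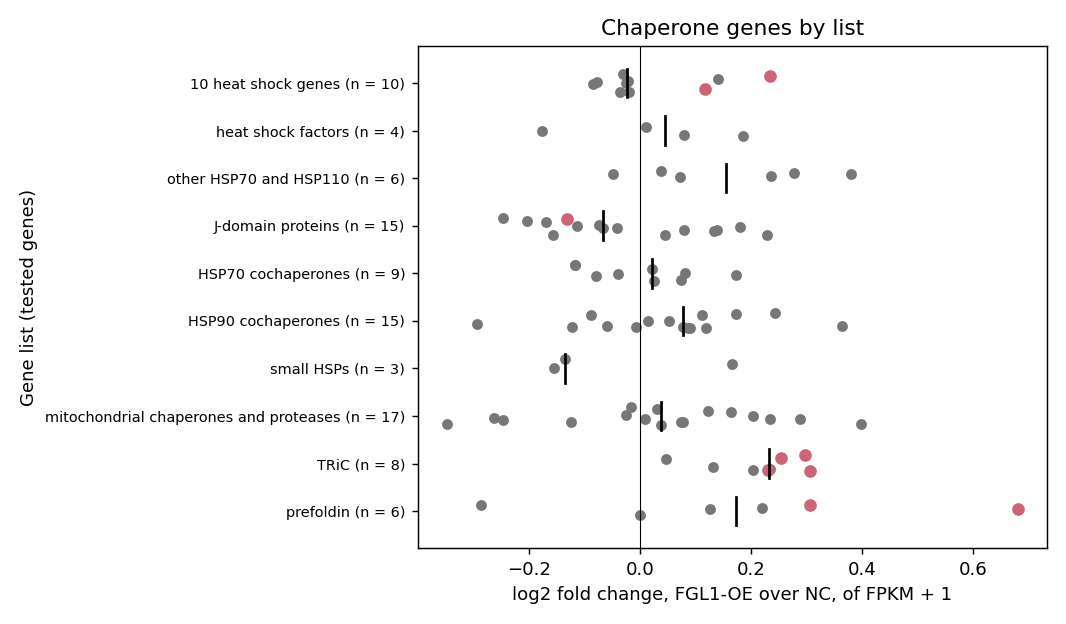
Log2 fold change of FPKM + 1 in FGL1-OE over NC for the tested genes (points) of the 10 heat shock genes and 9 further chaperone lists, with the median of each list as a black bar. Red points mark genes whose groups did not overlap, 4 of the 8 in TRiC, and the list medians lie between -0.13 and 0.23.

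The genes whose levels followed a heat shock gene most closely over the 6 libraries were read among 3990 genes with a mean of at least 10 FPKM, by Pearson's r of log2(FPKM + 1), as a description with no p. These r come from the same 6 libraries and share their scaling. The genes were picked for a high r, so r with 2 libraries left out is no separate check. For HSPA1A they were SMG5 (r = 0.990, Spearman's rho = 1.00), SLC25A25 (r = 0.990, rho = 1.00) and BCR (r = 0.989, rho = 0.943), and with the 2 libraries farthest from the median left out r was 0.968, 0.974 and 0.990. For HSP90AA1 they were CDK5RAP2 (r = 0.983), BMS1 (r = 0.962) and CLSPN (r = 0.953), each with rho = 0.829, and r was 0.931, 0.969 and 0.986 without the 2 farthest libraries. For HSPD1 they were C6orf120 (r = 0.964), LDHB (r = 0.937) and TAF15 (r = 0.918), each with rho = 0.943, and r was 0.883, 0.626 and 0.868 without the 2 farthest libraries. The r of LDHB was thus the one that fell most without those 2 libraries, FGL1-OE 1 and FGL1-OE 3.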

How the data were processed

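Messenger RNA of TE1 cells was sequenced in 3 NC and 3 FGL1-OE libraries. The authors deposited FPKM values per library for genes and for transcripts, and the submitters' processing notes name StringTie and GRCh37, while the aligner, versions and annotation were not given in the sources used here. Columns of the authors' own comparison (group means, fold changes, p-values and q-values) were not used. Depth is unknown, since low FPKM values showed no steps of whole reads. Samples were grouped by the genotype label.

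Genes and transcripts averaging at least 0.5 FPKM over the 6 libraries were tested with limma 3.58.1 (R 4.3.3) on log2(FPKM + 1), a scale that understates changes of low genes, without covariates or scaling. P-values were adjusted by Benjamini-Hochberg over all features of a table, with a threshold of 0.05. Ratios and sums had exact permutation tests (Python 3.11.15, scipy 1.17.1). The code was tested on simulated data.

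The genes and lists were chosen with earlier results of these data known. All 10 genes and their transcripts were eligible to be named, with FGL1, the most abundant gene of each list, each list gene with an unadjusted p under 0.05, and the 3 genes most correlated with HSPA1A, HSP90AA1 and HSPD1. Transcripts of at least 10% mean share were taken as main ones. Words of 31 bases came from GENCODE 29 transcripts, and sequences from RefSeq. Alternatives were a minimum mean of 1 FPKM or none, a pseudocount of 0.1, a common sum, quantile normalization, a replicate block, an ordinary linear model, sums of transcripts, and leaving out each library.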

Additional observations from a re-analysis of the deposited data

How the results depend on the processing

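The 10 heat shock genes had an adjusted p under 0.05 in 0 cases under every alternative run, with limma and with an ordinary linear model. What follows is limited by 3 libraries per group and by unknown depth. Leaving out NC 2 moved HSPA1A, HSPA1B, HSPA8 and HSPE1 most. The number of heat shock genes with an unadjusted p under 0.05 was 0 to 1 with each library left out, and their median log2 fold change -0.058 to 0.070. The number of their transcripts with an unadjusted p under 0.05, which was 2, was 0 with a pseudocount of 0.1, 1 with a mean of at least 1 FPKM and 0 with the replicate block. It was 0 to 2 with each library left out. Libraries with the same number did not all deviate together (correlations 0.345, 0.282 and -0.0614, against -0.370 to 0.136 for unlike numbers). Numbers 1 and 2 thus lay above every unlike pair and number 3 did not. The number was taken as a name, and the replicate block gave 0 heat shock genes with an unadjusted p under 0.05. Signs turned for HSPA1A under quantile normalization (0.010) and, with sums of transcripts, for HSPH1 (0.011), for HSPD1 over HSPE1 (0.051) and for HSPA1A over HSPA1B (-0.0069). Leaving out each library gave log2 ranges through 0 of -0.28 to 0.11 for HSPA1A, -0.33 to 0.12 for HSPA1B, -0.14 to 0.042 for HSPB1, -0.16 to 0.16 for HSPE1, -0.12 to 0.067 for HSPH1 and -0.00024 to 0.074 for the summed level. Ratios ranged from -0.45 to -0.17 for HSPA1A plus HSPA1B over HSPA8, -0.41 to -0.076 for HSPH1 over HSPA8, -0.23 to 0.077 for HSPD1 over HSPE1, -0.030 to 0.048 for HSPA1A over HSPA1B and -0.19 to 0.044 for DNAJB1 over HSPA8. Transcripts ranged from -0.22 to 0.26 for ENST00000216281, -0.65 to 0.67 for ENST00000334701, -1.40 to 2.67 for ENST00000353801, -0.35 to 0.32 for ENST00000371646, -0.15 to 0.24 for ENST00000375651, -0.98 to 0.58 for ENST00000608703, -0.33 to 0.12 for ENST00000375650, -0.11 to 0.072 for ENST00000248553 and -0.15 to 0.37 for ENST00000233893. Of the chaperone lists, 1 to 13 genes were higher and 0 to 10 lower at an unadjusted p under 0.05, the most without NC 2. The cause was not tested.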
